A study of Mus musculus with 8 samples.

Results

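Transcripts of branched-chain amino acid and ketone body breakdown were measured in inguinal white adipose tissue, the subcutaneous fat of the mouse groin, in Fabp4-Ebf2 and wild-type mice. The set held 28 genes of the 22869 in the deposited count table, chosen by gene name for their place in these pathways and taken as 1 transcript per gene. It covered 8 steps or roles, and all 28 genes passed the filter on low counts, which kept 15002 genes in all.

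The Fabp4-Ebf2 label joins Fabp4, whose regulatory sequence is active in adipocytes, to Ebf2, which encodes a transcription factor of brown and beige adipocytes. Wild-type mice were the controls. Each genotype had 4 polyadenylated RNA libraries. All mice had a mixed background, were about 6 weeks old, ate normal chow and lived at room temperature, and lymph nodes were taken out of the tissue. The labels do not say that each library came from its own animal, so p-values measure only the spread between these samples.

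Leucine, isoleucine and valine are first stripped of their amino group by a branched-chain aminotransferase. The branched-chain keto acid dehydrogenase complex then commits the keto acids to breakdown, held back by a kinase and released by a phosphatase. Separate mitochondrial routes carry each chain to acetyl-CoA, acetoacetate or propionyl-CoA, and propionyl-CoA enters the tricarboxylic acid cycle as succinyl-CoA. Ketone bodies are oxidised by enzymes that turn 3-hydroxybutyrate into acetoacetate and then acetoacetyl-CoA. White and brown adipocytes both break down branched-chain amino acids, and brown fat in the cold is known to draw on them as fuel.

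Library totals were 18.4 to 24.7 M reads in Fabp4-Ebf2 fat and 16.9 to 24.1 M reads in wild-type fat. Ebf2 lay between 231 and 575 CPM (a gene's reads scaled to a common library total after normalisation) in Fabp4-Ebf2 libraries and between 14.9 and 37.0 CPM in wild-type libraries, and reads from the transgene and the endogenous gene are not separated. The summed level of 10 adipocyte markers was 26227 to 30513 CPM in Fabp4-Ebf2 fat and 33041 to 42671 CPM in wild-type fat, with no marker at 0. Much of that gap lay in Cfd, with means of 6864 CPM in Fabp4-Ebf2 fat and 14009 CPM in wild-type fat. Of the 10 adipocyte markers, 7 had lower and 3 higher means in Fabp4-Ebf2 fat. Their median log2 fold change was -0.12, and 1 of them passed the test, as lower. The summed level of 8 thermogenic markers was 1192 to 3875 CPM in Fabp4-Ebf2 fat and 142 to 411 CPM in wild-type fat. Its best-known member, the uncoupling protein gene Ucp1, ran from 348 to 1873 CPM in Fabp4-Ebf2 fat and from 9.26 to 98.6 CPM in wild-type fat. The summed level of 20 skeletal muscle markers was 61.0 to 456 CPM in Fabp4-Ebf2 fat and 518 to 1456 CPM in wild-type fat, so those ranges did not overlap either. The mean of each of the 20 muscle markers was lower in Fabp4-Ebf2 fat. Their median log2 fold change was -2.05, 2 of them passed the test, and none was at 0 in all libraries. The muscle actin gene Acta1 spanned 5.27 to 56.6 CPM in Fabp4-Ebf2 fat and 64.5 to 207 CPM in wild-type fat. The fast myosin gene Myh4 spanned 2.33 to 110 CPM in Fabp4-Ebf2 fat and 98.5 to 357 CPM in wild-type fat, and the hepatocyte gene Alb stayed at or below 37.5 CPM in all 8 libraries. In bulk tissue, fewer cells of a type and less RNA per cell cannot be told apart, and this holds for all levels given here.

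Of the 28 genes, 1 passed the test across all genes (edgeR's quasi-likelihood test, Benjamini-Hochberg adjusted p under 0.05), namely Bckdk, the kinase of the dehydrogenase complex, which rose. That share, 3.57%, was close to the 3.42% of all tested genes that passed, of which 420 were higher and 93 lower in Fabp4-Ebf2 fat. Higher calls made up 2.8% of tested genes and lower calls 0.62%. The other 27 genes did not pass, and 0 of the 28 were called lower by edgeR, where 3 had an unadjusted p under 0.05 and a lower mean and DESeq2 called 1.

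Without a threshold on adjusted p, the 28 genes lay more often on the higher side. Their median log2 fold change was 0.26, against -0.01 over all tested genes. The mean was higher in Fabp4-Ebf2 fat for 18 genes and lower for 10, whereas 48.4% of all tested genes had the higher mean in Fabp4-Ebf2 fat and 51.6% the lower. The 2 genotypes did not overlap for 9 genes higher in Fabp4-Ebf2 fat, a share of 32.1% where 7.35% of all tested genes did so. They did not overlap for 2 genes lower in Fabp4-Ebf2 fat, a share of 7.14% where 4.07% of all tested genes did so. Those 11 genes were 39.3% of the set, beside 11.4% of all tested genes. An unadjusted edgeR p under 0.05 was reached by 13 of the 28 genes, or 46.4%, and by 17.5% of all tested genes. Of the 13, 10 were higher in Fabp4-Ebf2 fat (35.7%, beside 10.2% of all tested genes) and 3 lower (10.7%, beside 7.27%). These shares are descriptions of the list, which was chosen with earlier results of these data known.

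The number of calls among the 28 genes depended on the tool. DESeq2 called 8 of 28, or 28.6%, where it called 8.23% of all genes. The 7 higher calls were Acat1, Auh, Bckdha, Bckdk, Mcee, Pcca and Pccb, where 5.66% of all genes were called higher. The only lower call was Bcat2, where 2.57% of all genes were called lower. In the authors' deposited table an FDR under 0.05 was given for 7 of the 28 genes and for 4.19% of all genes, with 6 of the 7 higher (2.98% of all genes) and 1 lower (1.21% of all genes). These shares are over all 22869 genes, with those that failed the filter on low counts. The shares of edgeR and DESeq2 are over 15002 and 14984 genes, so the 2 kinds of share are not alike. Those genes were the same as the DESeq2 calls without Bckdk, whose FDR was 0.0778 in the authors' deposited table.

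**Figure D1:**
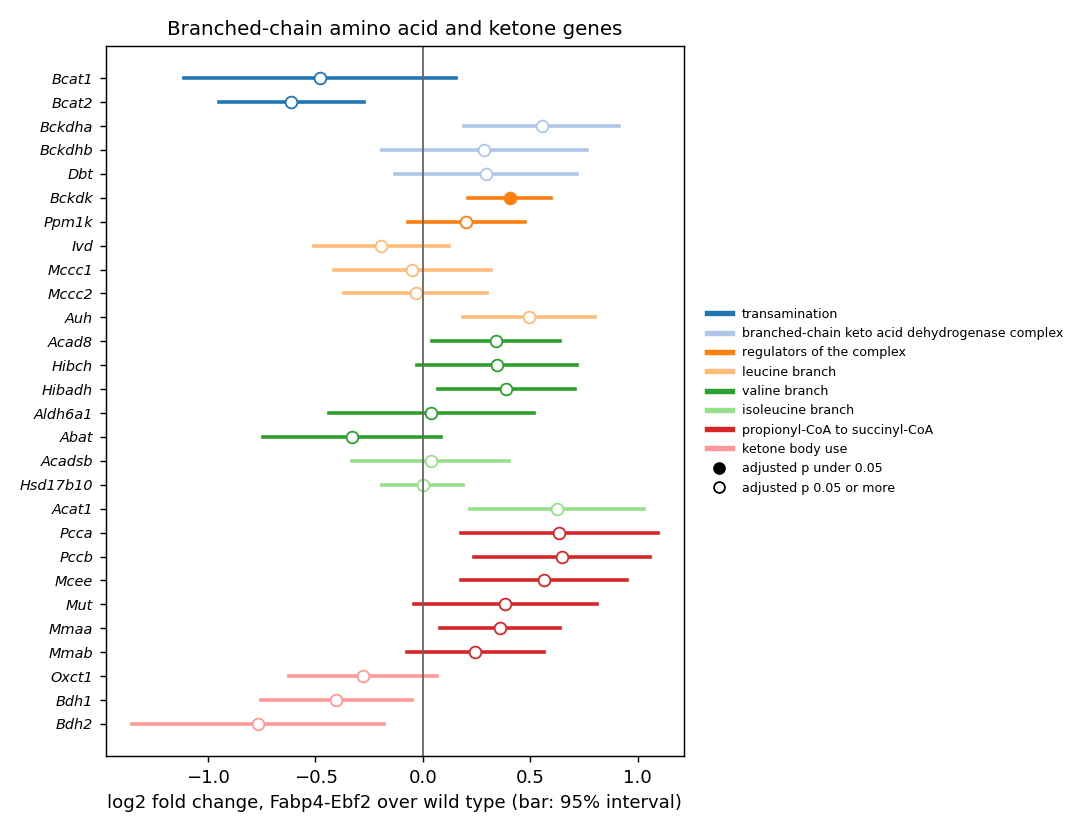
The log2 fold change of each of the 28 genes, Fabp4-Ebf2 over wild type, is plotted with its 95% interval from edgeR, ordered and coloured by role; a filled point marks an adjusted p under 0.05. Bckdk is the only filled point, the 6 propionyl-CoA genes all lie right of 0, and both aminotransferases and the 3 ketone genes lie left of 0.

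Levels can be compared between genes only per length of transcript. On that scale, in CPM per kilobase, the methylmalonate semialdehyde dehydrogenase Aldh6a1 was highest in both genotypes, at 179 ± 17.9 in Fabp4-Ebf2 fat and 174 ± 49.5 in wild-type fat (SD, n = 4 each). In Fabp4-Ebf2 fat it was followed by Bckdha at 175 ± 38.3, Hibadh at 160 ± 22.7 and Pccb at 151 ± 36.2 CPM per kilobase, neighbours that lay within one another's SD. In wild-type fat the second place was held by the aminotransferase Bcat2 at 161 ± 9.74 CPM per kilobase, which ranked seventh in Fabp4-Ebf2 fat at 105 ± 23.9. The lowest levels were those of Bcat1, Bdh1, Bdh2 and Abat, at 1.39 to 2.21 CPM per kilobase in Fabp4-Ebf2 fat and 1.75 to 3.08 in wild-type fat. The range over the 28 genes was therefore wide in both genotypes, and the same 4 genes were at its low end.

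Both aminotransferases had lower means in Fabp4-Ebf2 fat, and neither passed the edgeR test. Bcat2, the mitochondrial form, had 217, 291, 190 and 181 CPM in Fabp4-Ebf2 replicates 1 to 4, against 359, 323, 315 and 346 CPM in wild-type replicates 1 to 4. All 4 Fabp4-Ebf2 libraries were below all 4 wild-type libraries, and Fabp4-Ebf2 replicate 2 was the nearest to wild type. The log2 fold change was -0.61 with a standard error (SE) of 0.15 (edgeR adjusted p = 0.0611). Without Fabp4-Ebf2 replicate 2 it was -0.79 (edgeR adjusted p = 0.00688), and over the other single omissions it ran from -0.64 to -0.53 with no call. With the mean of the muscle markers as a covariate it was -0.18 (edgeR adjusted p = 0.896). That covariate did not overlap between genotypes, so the fit cannot tell genotype from muscle marker level, for Bcat2 or any other gene. DESeq2 called Bcat2 lower, and its FDR was 0.0094 in the authors' deposited table. Bcat1, the cytosolic form, had 7.41, 5.07, 5.60 and 4.54 CPM in Fabp4-Ebf2 replicates 1 to 4, against 12.3, 8.02, 6.30 and 4.82 CPM in wild-type replicates 1 to 4. The groups overlapped, and wild-type replicate 1 was the highest of the 8 libraries. The log2 fold change was -0.48 with an SE of 0.28 (edgeR adjusted p = 0.414), and 0.0617 with the same covariate. Without wild-type replicate 1 it was -0.18 (edgeR adjusted p = 0.72). In the annotation of GRCm38, which is not the build of the counts, exons of Bcat2 and of 0610005C13Rik share 508 bases on opposite strands, and the row of 0610005C13Rik held 10 to 28 reads in Fabp4-Ebf2 libraries and 18 to 38 in wild-type libraries. Whether counting used strand is not stated by the submitters' labels or the file.

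No difference between genotypes was detectable in the balance of the aminotransferases. The ratio of Bcat2 to Bcat1 per kilobase was 35.9, 70.3, 41.6 and 48.9 in Fabp4-Ebf2 replicates 1 to 4, against 35.7, 49.4, 61.5 and 88.1 in wild-type replicates 1 to 4. The mitochondrial form was thus the more abundant in every library, and the groups overlapped. The mean log2 ratio differed by -0.24 (two-sided exact permutation test, p = 0.486, adjusted over 3 ratios p = 0.729).

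The 3 genes of the dehydrogenase complex listed here had higher means in Fabp4-Ebf2 fat. Bckdha, the alpha subunit of the decarboxylase and the target of the kinase, had 291, 294, 441 and 301 CPM in Fabp4-Ebf2 replicates 1 to 4, against 228, 194, 215 and 268 CPM in wild-type replicates 1 to 4. All Fabp4-Ebf2 libraries were above all wild-type libraries, and Fabp4-Ebf2 replicate 3 stood well above the other 3. The log2 fold change was 0.55 with an SE of 0.16 (edgeR adjusted p = 0.107). Without Fabp4-Ebf2 replicate 3 and wild-type replicate 2 it was 0.32. This pair was picked after the data were seen. Among the 18 members with higher means, the first was the highest of its genotype for 17 and the second the lowest for 17. Leaving both out therefore lowers most of these log2 fold changes by construction, here and below. Its partner Bckdhb, the beta subunit, spanned 68.5 to 146 CPM in Fabp4-Ebf2 fat and 69.2 to 93.1 CPM in wild-type fat, with a log2 fold change of 0.29 and an SE of 0.21. Dbt, the transacylase core, spanned 97.7 to 139 CPM in Fabp4-Ebf2 fat and 62.5 to 117 CPM in wild-type fat, with a log2 fold change of 0.29 and an SE of 0.19. The groups overlapped for Bckdhb and Dbt. Without Fabp4-Ebf2 replicate 3 and wild-type replicate 2 the log2 fold changes were -0.0419 for Bckdhb and 0.05 for Dbt.

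Bckdk encodes the kinase that phosphorylates the complex and switches it off. It had 107, 96.1, 120.0 and 100.01 CPM in Fabp4-Ebf2 replicates 1 to 4, against 84.4, 77.5, 77.2 and 80.9 CPM in wild-type replicates 1 to 4. Every Fabp4-Ebf2 library was above every wild-type library, and the wild-type libraries were close together. Bckdk rose 1.32-fold, a log2 fold change of 0.40 with an SE of 0.09 and a 95% interval of 0.21 to 0.60 (edgeR adjusted p = 0.0361). The estimate stayed between 0.32 and 0.47 in all 20 alternative fits, while the call did not stand in all of them. Leaving out 1 library ended it for Fabp4-Ebf2 replicate 1 (edgeR adjusted p = 0.103), replicate 3 (0.0796) or replicate 4 (0.0716). It also ended without wild-type replicate 1 (edgeR adjusted p = 0.0663), replicate 3 (0.0944) or replicate 4 (0.103). With the mean of the muscle markers as a covariate the log2 fold change was 0.41 (edgeR adjusted p = 0.592), but that covariate did not overlap between genotypes, so the 2 cannot be told apart.

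Ppm1k encodes the phosphatase that reactivates the complex. It had 38.2, 40.7, 33.4 and 33.7 CPM in Fabp4-Ebf2 replicates 1 to 4, against 29.8, 26.1, 35.4 and 35.7 CPM in wild-type replicates 1 to 4. The groups overlapped, and the log2 fold change was 0.20 with an SE of 0.12 (edgeR adjusted p = 0.42). The ratio of Bckdk to Ppm1k per kilobase was 4.59, 3.85, 5.87 and 4.84 in Fabp4-Ebf2 replicates 1 to 4, against 4.62, 4.85, 3.56 and 3.70 in wild-type replicates 1 to 4. The kinase transcript was the more abundant of the pair in all 8 libraries, and the groups overlapped. The mean log2 ratio was 0.19 higher in Fabp4-Ebf2 fat (two-sided exact permutation test, p = 0.257, adjusted over 3 ratios p = 0.729).

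The leucine branch was divided. Ivd, isovaleryl-CoA dehydrogenase, spanned 238 to 288 CPM in Fabp4-Ebf2 fat and 222 to 337 CPM in wild-type fat, with a log2 fold change of -0.19 and an SE of 0.14. Mccc1 and Mccc2, the 2 subunits of the biotin enzyme methylcrotonyl-CoA carboxylase, had log2 fold changes of -0.05 with an SE of 0.16 and -0.03 with an SE of 0.15. Their 95% intervals ran from -0.42 to 0.32 for Mccc1 and from -0.37 to 0.30 for Mccc2. Auh, the hydratase of the next step, had 74.3, 59.7, 96.3 and 67.5 CPM in Fabp4-Ebf2 replicates 1 to 4, against 53.3, 48.2, 55.6 and 54.2 CPM in wild-type replicates 1 to 4. All Fabp4-Ebf2 libraries were above all wild-type libraries for Auh. Its log2 fold change was 0.49 with an SE of 0.14 (edgeR adjusted p = 0.0917), and without Fabp4-Ebf2 replicate 2 it was 0.58 (edgeR adjusted p = 0.0287). It was 0.35 without Fabp4-Ebf2 replicate 3 (edgeR adjusted p = 0.153) and 0.30 without that library and wild-type replicate 2 (edgeR adjusted p = 0.148).

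Of the 5 genes of the valine branch, 4 had the higher mean in Fabp4-Ebf2 fat and none passed. Hibadh, 3-hydroxyisobutyrate dehydrogenase, spanned 259 to 348 CPM in Fabp4-Ebf2 fat and 174 to 254 CPM in wild-type fat, with no overlap. Its log2 fold change was 0.39 with an SE of 0.14 (edgeR adjusted p = 0.195). Acad8, isobutyryl-CoA dehydrogenase, had a log2 fold change of 0.34 (SE 0.13), and Hibch, the hydrolase that precedes Hibadh, one of 0.34 (SE 0.17). The groups overlapped for both. Aldh6a1, which ends the branch, spanned 555 to 687 CPM in Fabp4-Ebf2 fat and 343 to 710 CPM in wild-type fat, with a log2 fold change of 0.04 (SE 0.21). Its wild-type replicate 2 stood far below the other 3 wild-type libraries, and without it the log2 fold change was -0.16. Abat, 4-aminobutyrate aminotransferase, was low, at 4.53 to 8.31 CPM in Fabp4-Ebf2 fat and 7.21 to 8.98 CPM in wild-type fat, with a log2 fold change of -0.33 (SE 0.18).

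In the isoleucine branch the first and second listed enzymes had log2 fold changes near 0. Acadsb, the short and branched chain acyl-CoA dehydrogenase, had a log2 fold change of 0.04 (SE 0.16), which was -0.0025 with upper-quartile factors. Hsd17b10, the hydroxyacyl-CoA dehydrogenase that follows, had one of 0.00 with a 95% interval of -0.19 to 0.19. Acat1 is the mitochondrial thiolase that splits the last isoleucine intermediate and acetoacetyl-CoA, and so also serves ketone oxidation. It had 393, 344, 574 and 378 CPM in Fabp4-Ebf2 replicates 1 to 4, against 294, 212, 293 and 297 CPM in wild-type replicates 1 to 4. Every Fabp4-Ebf2 library was above every wild-type library, with Fabp4-Ebf2 replicate 3 and wild-type replicate 2 farthest apart. The log2 fold change was 0.62 with an SE of 0.18 (edgeR adjusted p = 0.105), and without those 2 libraries it was 0.33. In the authors' deposited table its FDR was 0.00551.

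All 6 genes that carry propionyl-CoA to succinyl-CoA had higher means in Fabp4-Ebf2 fat, and the groups did not overlap for 4 of them. Over all tested genes 48.4% had the higher mean in Fabp4-Ebf2 fat and 7.35% were higher with no overlap. No gene of the 6 passed the edgeR test. Pcca, the biotin-carrying alpha subunit of propionyl-CoA carboxylase, had 161, 140, 252 and 158 CPM in Fabp4-Ebf2 replicates 1 to 4, against 132, 83.8, 113 and 129 CPM in wild-type replicates 1 to 4. Pccb, its beta subunit, had 321, 288, 474 and 320 CPM in Fabp4-Ebf2 replicates 1 to 4, against 224, 171, 248 and 253 CPM in wild-type replicates 1 to 4. In both, Fabp4-Ebf2 replicate 3 was the highest of the 8 libraries and wild-type replicate 2 the lowest. Pcca had a log2 fold change of 0.63 with an SE of 0.20 (edgeR adjusted p = 0.136). Pccb had a log2 fold change of 0.65 with an SE of 0.18 (edgeR adjusted p = 0.0965). Without Fabp4-Ebf2 replicate 3 and wild-type replicate 2 the log2 fold changes were 0.29 for Pcca and 0.36 for Pccb. In the authors' deposited table the FDR was 0.00792 for Pcca and 0.0037 for Pccb.

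Mcee, the epimerase that turns over methylmalonyl-CoA, had 34.9, 33.9, 55.5 and 31.9 CPM in Fabp4-Ebf2 replicates 1 to 4, against 28.4, 24.2, 27.6 and 25.3 CPM in wild-type replicates 1 to 4. The groups did not overlap, and the log2 fold change was 0.56 with an SE of 0.17 (edgeR adjusted p = 0.12). Mut, the cobalamin-dependent mutase that makes succinyl-CoA, spanned 146 to 229 CPM in Fabp4-Ebf2 fat and 93.3 to 158 CPM in wild-type fat, with a log2 fold change of 0.38 (SE 0.19). Mmaa, a chaperone that protects the mutase and its cofactor, spanned 26.2 to 34.4 CPM in Fabp4-Ebf2 fat and 18.8 to 24.6 CPM in wild-type fat, with no overlap and a log2 fold change of 0.36 (SE 0.12). Mmab, which makes the adenosylcobalamin the mutase needs, had a log2 fold change of 0.24 (SE 0.14), and its groups overlapped. Without Fabp4-Ebf2 replicate 3 and wild-type replicate 2 the log2 fold changes were 0.31 for Mcee, 0.10 for Mut, 0.18 for Mmaa and 0.04 for Mmab.

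The promoter windows of Bckdk, the gene that passed the test, and of Pcca and Pccb, which encode the subunits of one enzyme and had near-equal log2 fold changes, are shown as RefSeq gives them on GRCm38.p6. Each runs 5′ to 3′ on the strand of the gene, from 250 bases before to 50 bases after a transcription start. The Bckdk window is chr7:127903823-127904122 on the plus strand, that of Pcca chr14:122534078-122534377 on the plus strand and that of Pccb chr9:101034835-101035134 on the minus strand. Capitals mark the EBF core letters CCCNNGGG and the CCAAT box, on either strand.
Bckdk: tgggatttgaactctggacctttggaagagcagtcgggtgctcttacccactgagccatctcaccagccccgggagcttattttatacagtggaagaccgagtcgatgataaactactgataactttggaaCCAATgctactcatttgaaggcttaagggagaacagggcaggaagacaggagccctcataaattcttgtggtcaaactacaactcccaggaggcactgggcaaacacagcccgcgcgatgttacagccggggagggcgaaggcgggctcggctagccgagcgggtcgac
Pcca: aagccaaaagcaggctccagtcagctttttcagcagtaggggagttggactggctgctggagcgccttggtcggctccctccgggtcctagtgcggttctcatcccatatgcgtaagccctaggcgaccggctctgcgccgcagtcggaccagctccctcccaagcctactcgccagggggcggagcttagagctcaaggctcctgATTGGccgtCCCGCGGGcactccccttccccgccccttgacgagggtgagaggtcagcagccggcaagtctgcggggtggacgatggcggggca
Pccb: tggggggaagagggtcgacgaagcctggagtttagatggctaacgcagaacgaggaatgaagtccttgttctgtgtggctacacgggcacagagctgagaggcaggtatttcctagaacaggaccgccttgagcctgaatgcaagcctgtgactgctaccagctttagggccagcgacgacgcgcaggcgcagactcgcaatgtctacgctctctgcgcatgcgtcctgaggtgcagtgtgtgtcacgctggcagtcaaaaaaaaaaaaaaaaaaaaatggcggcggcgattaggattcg
The Bckdk window holds 1 CCAAT box and no core, the Pcca window 1 box and 1 core, which starts at base 216, and the Pccb window neither. Of the 28 genes 24 were matched to the table, with 31 windows in all, and Abat, Acat1, Dbt and Mut (Mmut in RefSeq) were not. The core was found in windows of 4 genes, Aldh6a1, Bcat2, Bdh1 and Pcca, that is in 4 of 31 windows, and in 13.7% of all 32851 windows. Bcat2 had 2 windows, and the one nearest the start of the transcript counted here held 0 cores. The letters TCAAGGTCA, a site of the estrogen-related receptors, were in 0 of the 31 windows and in 0.423% of all windows. The CCAAT box was in 18 of the 31 windows and in 37.4% of all windows. Both strands were searched, and a match describes letters only.

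The 3 genes listed under ketone body use had lower means in Fabp4-Ebf2 fat, as did 51.6% of all tested genes, and none passed the edgeR test. Acat1, listed under isoleucine but also serving ketone oxidation, had the higher mean in Fabp4-Ebf2 fat, with a log2 fold change of 0.62. The ketone body carrier Slc16a1 is given below with the other genes of the pathways. Oxct1, which transfers CoA from succinyl-CoA to acetoacetate and commits ketone bodies to oxidation, had 216, 277, 276 and 197 CPM in Fabp4-Ebf2 replicates 1 to 4, against 354, 249, 266 and 304 CPM in wild-type replicates 1 to 4. The groups overlapped, and the log2 fold change was -0.28 with an SE of 0.15 (edgeR adjusted p = 0.379). With the mean of the muscle markers as a covariate it was 0.17 (edgeR adjusted p = 0.914), in a fit that cannot tell genotype from that covariate. Exons of Oxct1 and BC037032 share 467 bases on opposite strands in GRCm38, and BC037032 held 191 to 257 reads in Fabp4-Ebf2 libraries and 184 to 272 in wild-type libraries. Exons of Bdh1 and Gm15743 share 533 bases on opposite strands, and no counts were available for Gm15743. Shorter overlaps on opposite strands, of 18 to 250 bases, were found for Aldh6a1, Bcat1, Mccc1 and Mut.

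Bdh1, the mitochondrial 3-hydroxybutyrate dehydrogenase, had 7.18, 6.83, 5.31 and 6.13 CPM in Fabp4-Ebf2 replicates 1 to 4, against 7.51, 10.5, 7.51 and 8.21 CPM in wild-type replicates 1 to 4. All Fabp4-Ebf2 libraries were below all wild-type libraries by a narrow margin, and the log2 fold change was -0.40 with an SE of 0.16 (edgeR adjusted p = 0.219). Bdh2, a cytosolic relative, had 1.84, 2.35, 1.62 and 1.72 CPM in Fabp4-Ebf2 replicates 1 to 4, against 4.67, 3.49, 2.37 and 2.32 CPM in wild-type replicates 1 to 4. The groups overlapped, and wild-type replicates 1 and 2 were the highest. Its log2 fold change was -0.77 with an SE of 0.26 (edgeR adjusted p = 0.16), and with the mean of the muscle markers as a covariate it was -0.19 (edgeR adjusted p = 0.951). The limit given for that covariate under Bcat2 holds for Bdh2 too. The ratio of Bdh1 to Oxct1 per kilobase was 0.0375, 0.0278, 0.0218 and 0.0352 in Fabp4-Ebf2 replicates 1 to 4, against 0.0239, 0.0475, 0.0319 and 0.0304 in wild-type replicates 1 to 4. The groups overlapped, with a mean log2 difference of -0.10 (two-sided exact permutation test, p = 0.771, adjusted over 3 ratios p = 0.771). The direction of that difference turned without Fabp4-Ebf2 replicate 3 (0.05) or without wild-type replicate 2 (0.08).

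**Figure D2:**
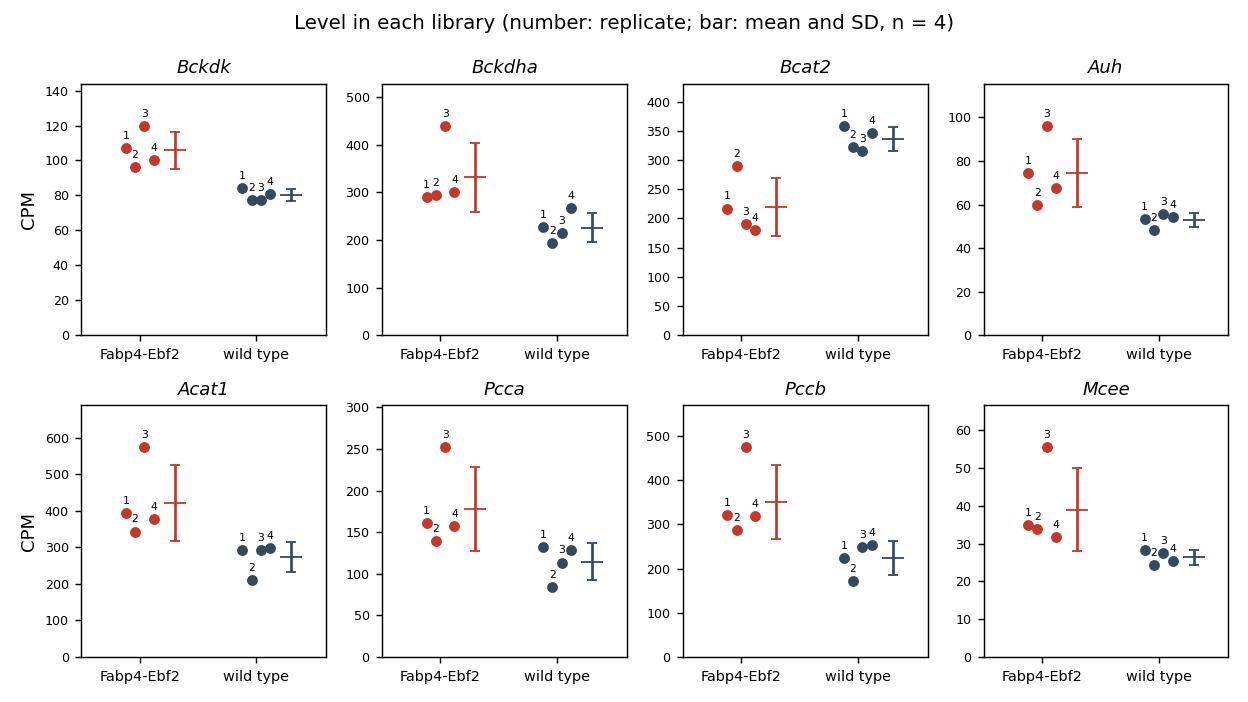
Levels in CPM are plotted for 8 genes, with Fabp4-Ebf2 libraries left and wild-type libraries right in each panel, the replicate number above each point, and the mean and SD (n = 4) beside them; each axis starts at 0. The 8 genes are those called by DESeq2: the groups do not overlap in any panel, Bcat2 is lower in Fabp4-Ebf2 fat, and Fabp4-Ebf2 replicate 3 is the highest library in the other 7 panels.

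The values shared a pattern across libraries. Fabp4-Ebf2 replicate 3 was the highest of its genotype for 21 of the 28 genes, and Fabp4-Ebf2 replicate 2 the lowest for 17. Wild-type replicate 2 was the lowest of its genotype for 23 of the 28 genes. Among the 18 genes with the higher mean in Fabp4-Ebf2 fat, Fabp4-Ebf2 replicate 3 was the highest of its genotype for 17 and wild-type replicate 2 the lowest of its genotype for 17. Fabp4-Ebf2 replicate 3 also had the highest thermogenic marker sum, 3875 CPM, and Fabp4-Ebf2 replicate 2 the lowest of its genotype, 1192 CPM. Fabp4-Ebf2 replicate 2 had the lowest adipocyte marker sum, 26227 CPM, and the highest macrophage marker sum of its genotype, 2453 CPM. Wild-type replicate 2 had the lowest adipocyte marker sum of its genotype, 33041 CPM, and the highest sums of 8 lymphocyte markers, 1547 CPM, and of 8 macrophage markers, 2853 CPM, among all 8 libraries. In the other libraries the lymphocyte sum was 800 to 997 CPM in Fabp4-Ebf2 fat and 886 to 1012 CPM in wild-type fat.

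The median log2 fold change of the 28 genes was 0.17 without Fabp4-Ebf2 replicate 3 and 0.13 without wild-type replicate 2. Without both it was 0.04, with 0 of the 28 genes and 395 of all genes called. Leaving out Fabp4-Ebf2 replicate 2 instead gave a median of 0.34 and 3 calls, namely Bckdk and Auh as higher and Bcat2 as lower, with 918 calls over all genes. With the mean of the adipocyte markers as a covariate the median was 0.49, and 16 of the 28 genes were called, 13 higher and 3 lower, with 2525 calls over all genes. That mean was itself lower in most Fabp4-Ebf2 libraries, at 10.3 to 10.7 log2 CPM, against 10.5 to 11.1 in wild-type libraries. Genotype and covariate are therefore not fully separate in this fit. The covariate and the paired omission were chosen after the data were seen. The part of the thermogenic, adipocyte, macrophage and lymphocyte marker levels in these values was not tested beyond that covariate.

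**Figure D3:**
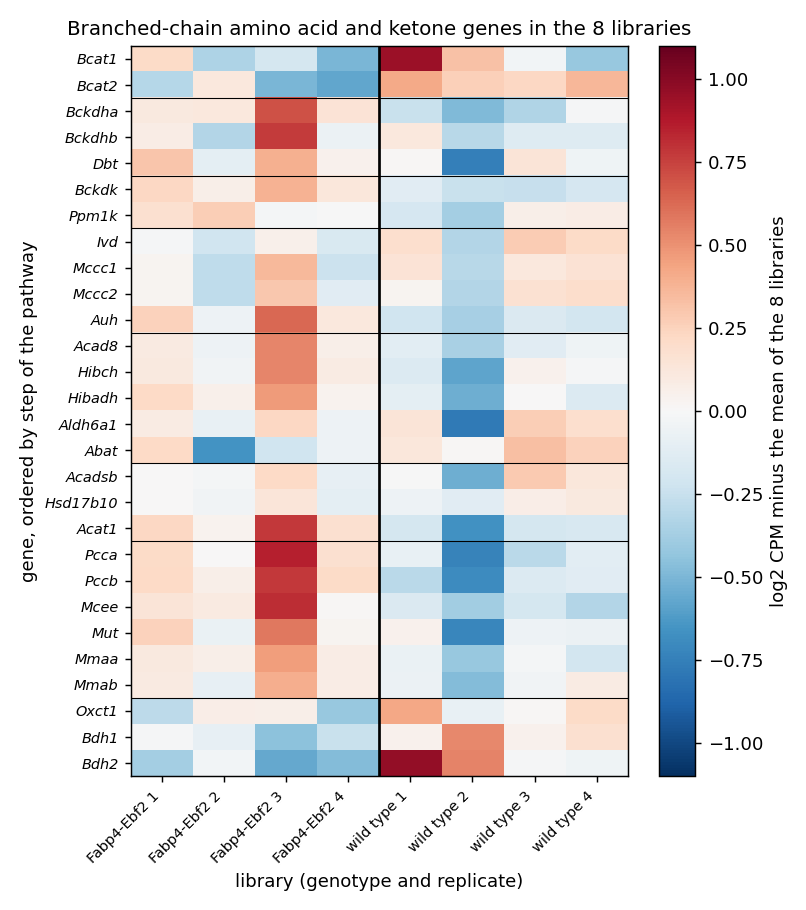
Each row is a gene, ordered by step of the pathway, and each column a library, with Fabp4-Ebf2 left of the line and wild type right of it; colour gives log2 CPM minus the mean of the 8 libraries. Fabp4-Ebf2 replicate 3 is the reddest and wild-type replicate 2 the bluest column for most rows between Bckdha and Mmab.

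The steps around these genes were read in 36 other genes of the same pathways, of which 34 were tested. Of these, edgeR called 8 higher, a share of 23.5% beside the 2.8% of all tested genes, and 0 lower. DESeq2 called 10 higher, 29.4% beside 5.66% of all genes, and 1 lower, 2.94% beside 2.57%. Its 10 higher calls were the same 8 genes with Echs1 and Mmachc. At an unadjusted edgeR p under 0.05, 2 of the 34 were lower. The median log2 fold change of the 34 genes was 0.25, against 0.26 for the 28 genes of the set and -0.01 over all tested genes. Of the genes that rose, Hadh, Hadha, Hadhb, Etfa, Etfb and Etfdh also serve fatty acid oxidation. Agxt2 and Oxct2a were not tested, with 0 to 3 reads per library.

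The electron carriers that take up electrons from the acyl-CoA dehydrogenases all rose. Etfdh, which passes the electrons on to ubiquinone, had 417, 298, 651 and 398 CPM in Fabp4-Ebf2 replicates 1 to 4, against 158, 94.1, 130 and 136 CPM in wild-type replicates 1 to 4. The groups were far apart, and the log2 fold change was 1.77 with an SE of 0.24 (edgeR adjusted p = 0.009). Etfa and Etfb, the subunits of the electron transfer flavoprotein, had log2 fold changes of 1.01 (SE 0.17, edgeR adjusted p = 0.0188) and 0.86 (SE 0.15, edgeR adjusted p = 0.0208). Their ranges were 313 to 555 CPM in Fabp4-Ebf2 fat and 174 to 226 CPM in wild-type fat for Etfa, and 401 to 659 CPM in Fabp4-Ebf2 fat and 260 to 306 CPM in wild-type fat for Etfb. By contrast, the dehydrogenases of the set that hand electrons to them, Ivd, Acad8 and Acadsb, did not pass, at log2 fold changes of -0.19 for Ivd, 0.34 for Acad8 and 0.04 for Acadsb.

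Among the shared enzymes, Hadha and Hadhb, the subunits of the mitochondrial trifunctional protein, had log2 fold changes of 1.51 (SE 0.21, edgeR adjusted p = 0.0097) and 1.75 (SE 0.25, edgeR adjusted p = 0.0097). Hadha spanned 747 to 1418 CPM in Fabp4-Ebf2 fat and 291 to 432 CPM in wild-type fat. Hadhb spanned 123 to 266 CPM in Fabp4-Ebf2 fat and 42.3 to 65.0 CPM in wild-type fat. Hadh, the short-chain hydroxyacyl-CoA dehydrogenase, spanned 636 to 1140.1 CPM in Fabp4-Ebf2 fat and 271 to 416 CPM in wild-type fat. It rose by 1.22 on the log2 scale, with an SE of 0.21 (edgeR adjusted p = 0.0171). Dld, the dihydrolipoamide dehydrogenase shared by the branched-chain, pyruvate and oxoglutarate complexes, had 376, 323, 560 and 348 CPM in Fabp4-Ebf2 replicates 1 to 4, against 252, 163, 209 and 211 CPM in wild-type replicates 1 to 4. It rose with a log2 fold change of 0.94 and an SE of 0.19 (edgeR adjusted p = 0.033). All libraries of the Fabp4-Ebf2 genotype were above those of wild type for these 4 genes.

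Slc16a1, the monocarboxylate carrier that moves ketone bodies and lactate across the cell membrane, had 146, 101, 217 and 122 CPM in Fabp4-Ebf2 replicates 1 to 4, against 70.8, 52.1, 69.3 and 50.8 CPM in wild-type replicates 1 to 4. It rose with a log2 fold change of 1.27 and an SE of 0.23 (edgeR adjusted p = 0.0209), and the groups did not overlap. Slc25a44, the mitochondrial carrier of branched-chain amino acids known from brown fat, had a log2 fold change of 0.45 with an SE of 0.18 (edgeR adjusted p = 0.231). Its groups overlapped, at 104 to 163 CPM in Fabp4-Ebf2 fat and 74.4 to 117 CPM in wild-type fat. The remaining tested genes, which covered cobalamin handling, biotin and lipoate attachment, cytosolic acetoacetate use and Klf15, held 0 edgeR calls. Among the cobalamin genes, Mmachc had a log2 fold change of 0.66 (edgeR adjusted p = 0.078). It was called higher by DESeq2 and had an FDR under 0.05 in the authors' deposited table.

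The 8 calls among these other genes became 3 without Fabp4-Ebf2 replicate 1, without wild-type replicate 3 or without wild-type replicate 4, where all genes called numbered 165, 116 and 120. Hadha, Hadhb and Etfdh were called without any single library (largest edgeR adjusted p = 0.0434, 0.0477 and 0.0412). Without Fabp4-Ebf2 replicate 3 and wild-type replicate 2 all 8 were still called. With the muscle marker covariate 0 of the 34 genes and 1 of all genes was called. In that fit the log2 fold changes of the 8 genes were 0.77 to 1.95, against 0.86 to 1.77 without the covariate, and their SEs were 0.28 to 0.45, against 0.15 to 0.25.

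**Figure D4:**
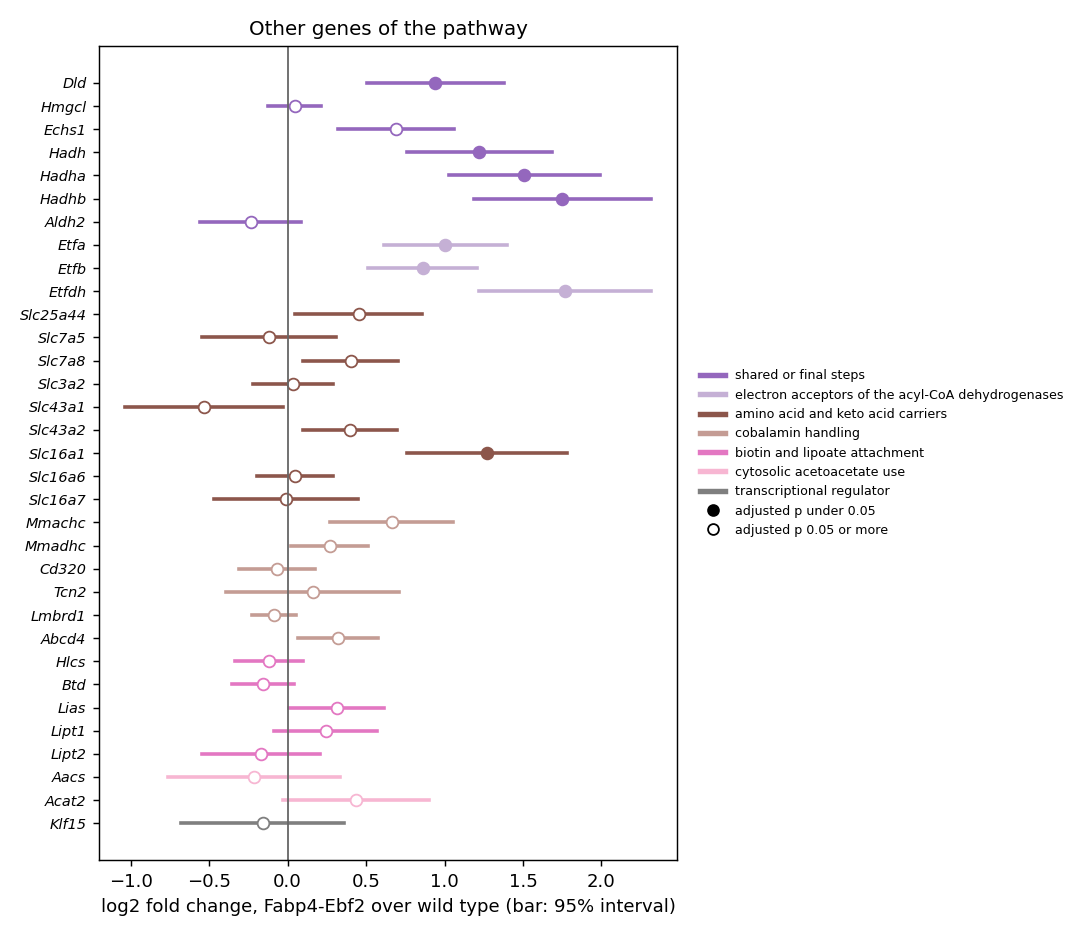
The log2 fold change of other tested genes of the pathways, with 1 gene not drawn, Fabp4-Ebf2 over wild type, is plotted with its 95% interval from edgeR and coloured by role; a filled point marks an adjusted p under 0.05. The 8 filled points, all right of 0, are Dld, Hadh, Hadha, Hadhb, Etfa, Etfb, Etfdh and Slc16a1.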

How the data were processed

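For 28644 RefSeq transcripts in 8 libraries, counts of reads as deposited were made by the authors on mm9, as listed in the submitters' processing notes. Which aligner and counter were used, and whether strand was, is not given in the sources used here. The authors' log2 fold change and their FDR, an adjusted p-value, came from edgeR per the file headers. A further 8 per-sample columns were not used.

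Each gene was read from the transcript the authors marked as best, else from the one with most reads. The counts were tested in edgeR 4.0.16 (R 4.3.3; TMM factors, filterByExpr, glmQLFit, glmQLFTest) with only genotype in the model, and p was adjusted by Benjamini-Hochberg over 15002 genes at 0.05. Each standard error was the absolute log2 fold change over the root of its F statistic. A count of 3 reads equals 0.122 to 0.163 CPM in Fabp4-Ebf2 libraries and 0.125 to 0.178 CPM in wild-type libraries, and the biological coefficient of variation was 18.7%, so spread between samples limited precision more than depth for most genes. The procedure was also run on simulated counts, drawn for each gene independently. The pattern that genes shared across libraries was not simulated, so that run cannot show how the test behaves under it.

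Ratios used CPM per kilobase plus 0.1 and two-sided exact permutation tests over 70 arrangements (smallest p 0.0286), which 1 library fewer raises to 0.0571. Lengths came from GENCODE transcripts on GRCm38 with the same RefSeq accession, not from the authors' models. Promoter windows came from the RefSeq table. DESeq2 1.42.0, limma-voom (limma 3.58.1), other factors and filters, marker covariates, a replicate block and omitted libraries were alternatives. Figures used matplotlib 3.10.9 and exact tests scipy 1.17.1.

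The members and all lists were chosen with earlier results of these data known. All 28 members are named; libraries are given singly for the member past the threshold, both aminotransferases, both regulators and the 3 ketone genes, and for others (Bckdha, Auh, Acat1, Pcca, Pccb, Mcee) chosen after their values were seen. Other pathway genes past the threshold are named, with libraries singly or as ranges. Slc25a44, Klf15, Echs1 and Mmachc, and the CCAAT box, were also chosen after values were seen. The result of 1 other pathway gene is not reported here.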

Additional observations from a re-analysis of the deposited data

Results flagged for a closer look

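Of 62 sets of 4 libraries of 1 genotype examined, 8 held a library far from the other 3, where chance gives about 1 in 20. Fabp4-Ebf2 replicate 3 was the high library in 3 of them. It had 441 CPM for Bckdha, where the other Fabp4-Ebf2 libraries had 291 to 301 CPM. For Mcee it had 55.5 CPM, where the others had 31.9 to 34.9 CPM, and for Mmaa it had 34.4 CPM, where the others had 26.2 to 27.0 CPM. Wild-type replicate 2 was the low library in the other 5. It had 222 CPM for Ivd, where the other wild-type libraries had 316 to 337 CPM, and 176 CPM for Mccc1, where they had 235 to 243 CPM. For Aldh6a1 it had 343 CPM against 648 to 710 CPM in the others, for Acat1 212 CPM against 293 to 297 CPM, and for Mut 93.3 CPM against 147 to 158 CPM. Genes of 1 library share its RNA and its normalisation, so these 8 are not separate events.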

How the results depend on the processing

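Across the 20 alternative fits, the median log2 fold change of the 28 branched-chain and ketone genes ran from 0.04 to 0.49 and that of all genes from -0.05 to 0.00. The direction held in every alternative for 19 of the 28 genes. The numbers of calls held within 1.5 times under DESeq2 size factors, upper-quartile factors, both other filters, limma-voom and the most-read transcript. The causes of the changes below were not tested. DESeq2 called 8 of the 28 genes, 7 higher and 1 lower, 1 of the other pathway genes lower, and 1233 of all genes, 848 higher and 385 lower. With the muscle marker covariate 0 of the 28 genes (0 higher), 0 of the other pathway genes (0 higher) and 1 of all genes (1 higher, 0 lower) were called, while the median log2 fold change of the 28 genes was 0.31, against 0.26 without the covariate. With the adipocyte marker covariate 16 of the 28 genes were called, 13 higher and 3 lower, and 2525 of all genes, 1479 higher and 1046 lower. Without wild-type replicate 1 and Fabp4-Ebf2 replicate 2 together 2 of the 28 genes were called, 1 of them lower, and 164 of all genes were lower. Without wild-type replicate 2 and Fabp4-Ebf2 replicate 3 together 0 of the 28 genes were called, 0 of them higher.

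With 1 library left out at a time, 0 to 3 of the 28 genes were called, 0 to 2 higher and 0 to 1 lower. Of the other pathway genes 3 to 11 were called, 3 to 11 of them higher. Of all genes 116 to 918 were called, 88 to 662 higher and 22 to 256 lower, the fewest without wild-type replicate 3 or, for lower calls, wild-type replicate 4, and the most without Fabp4-Ebf2 replicate 2. Log2 fold changes then ran from -0.195 to 0.0194 for Mccc1, -0.150 to 0.0368 for Mccc2, -0.0482 to 0.0350 for Hsd17b10, -0.16 to 0.13 for Aldh6a1 and -0.11 to 0.14 for Acadsb. The log2 ratio of Bdh1 to Oxct1 ran from -0.244 to 0.0798.

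Direction also turned under other alternatives. Acadsb was at -0.0025 with upper-quartile factors and Hsd17b10 at 0.0025 with no filter. With the muscle marker covariate Bcat1 was at 0.0617, Mccc1 at 0.0011, Hsd17b10 at 0.0108 and Oxct1 at 0.17. With the adipocyte marker covariate Ivd was at 0.0744, Mccc1 at 0.21, Mccc2 at 0.25 and Hsd17b10 at 0.10. Without wild-type replicate 1 and Fabp4-Ebf2 replicate 2 Mccc1 was at 0.0592 and Mccc2 at 0.0398. Without wild-type replicate 2 and Fabp4-Ebf2 replicate 3 Bckdhb was at -0.0419, Aldh6a1 at -0.21, Acadsb at -0.17 and the log2 ratio of Bdh1 to Oxct1 at 0.23.

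Libraries of the 2 genotypes share replicate numbers, but correlations of same-numbered libraries' deviations were -0.13, 0.33, 0.14 and 0.06, so the numbers were not taken as pairs, and only 1 of 4 Fabp4-Ebf2 libraries correlated best with its own number. A fit with a replicate block called 2 of the 28 genes, 2 higher, Acat1 (adjusted p = 0.0497) and Pccb (adjusted p = 0.0375), and 598 of all genes, while Bckdk had an adjusted p of 0.0523 in edgeR.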
